A study of Mus musculus with 8 samples.

Results

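The cytochromes P450 of families 1 to 3 are the haem enzymes with which the liver oxidises drugs, pollutants, steroids and fatty acids. The genes described here were the protein-coding ones whose symbol starts with Cyp1, Cyp2 or Cyp3, followed by a subfamily letter, a number and at most one letter, and which had a probe set that the platform annotation gives to 1 gene alone. They were 54 of the 30630 genes measured, in 16 subfamilies, 9 of which had 1 measured gene. Another 5 genes of these families (Cyp2a5, Cyp2c29, Cyp2d11, Cyp3a41a and Cyp3a41b) were only in probe sets given to several genes and were not analysed here. Membership rests on symbols and probe annotation. Where a gene has several probe sets the rule keeps the one of highest mean signal, but each member had only 1. The set was chosen with earlier results of these data known.

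Liver RNA was measured on 8 Affymetrix arrays, from male C57BL/6 mice made hypercholesterolemic by a high fat diet, which all of them were fed over 13 weeks. Of these mice, 4 had received 5 intraperitoneal injections of anti-miR-128-3p, which inhibits the microRNA of that name. The other 4 had received 5 control injections, whose content the labels give once as vehicle and elsewhere only as control. The treatment protocol names miR-128-3p itself as the injected agent, and the groups here follow the titles, which name the inhibitor. The sources used here give neither the age of the mice nor the dose. Each array was taken as 1 mouse, as the titles number them, without a label that states it outright. The comparison asks how inhibition of miR-128-3p affects liver gene expression under this diet. Below, control 1 to 4 and treated 1 to 4 are the livers by their replicate number, and values are log2 RMA signals, on which a step of 1 is a doubling.

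Over all genes the arrays had medians of 5.04 to 5.12, and over the negative control rows of 4.32 to 4.48. The hepatocyte markers, among them albumin, had mean signals of 12.53 to 12.71 in every liver (13 of 14 measured). At an unadjusted limma p under 0.05, 7.69% of these were higher in treated livers, against 4.26% of all genes, and 0.0% lower, against 3.37%. The 1 gene was Cyp7a1, which starts the making of bile acids from cholesterol. It was at 8.92, 8.42, 10.19 and 10.37 in control and at 11.21, 10.82, 10.31 and 11.24 in treated livers, overlapping groups that differed by 1.42 ± 0.43 (limma unadjusted p = 0.00954, adjusted p = 0.460). The mean level of 5 lung club cell markers was 4.40 to 4.53, near the negative control rows. In whole liver, fewer cells of a type and less RNA per cell cannot be told apart.

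Expression of these enzymes is set largely by sensors of foreign and endogenous compounds. The aryl hydrocarbon receptor (AhR) drives family 1, the constitutive androstane receptor (CAR) drives Cyp2b genes, and the pregnane X receptor (PXR) drives Cyp3a genes. Hepatocyte transcription factors such as HNF4A set their basal level, growth hormone sets the sex bias of many members, and inflammation is known to lower many of them. Many mouse members are tandem copies with closely similar sequence, so a probe set can also bind a relative's transcript. How far this happened was not tested.

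The inhibited microRNA is shown first because it defines the treated group. Its mature form in RefSeq (GRCm38.p6) has 21 bases and comes from a locus at chr1:128202404-128202424 (plus strand) and another at chr9:112118644-112118664 (minus strand), here with the seed, bases 2 to 8, in capitals.
mmu-miR-128-3p: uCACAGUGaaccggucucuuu

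No P450 gene passed the correction over all 30630 genes. By limma, 0 of the 54 members had an adjusted p under 0.05, as had 0.0% of all genes, and the smallest adjusted p among the members was 0.498. The members leaned slightly to lower signal in treated livers: 36 were lower and 18 higher, or 66.7% lower against 50.9% of all genes, with a median log2 difference of -0.03 against 0.00 for all genes. An unadjusted limma p under 0.05 was reached by 6 members, or 11.1%, against 7.63% of all genes. All 6 were lower, against 3.37% of all genes, and 0 were higher, against 4.26%. The 6 were Cyp2a12, Cyp2a22, Cyp2d22, Cyp2d26, Cyp2d40 and Cyp2u1. Among the 39 members at or above the median level of all genes, 27 were lower in treated livers, against 50.1% of all genes at that level. The 6 genes were 15.4% of these 39, against 4.86% of all genes at that level, and 0 were higher, against 6.32%. In no member did the 2 groups fail to overlap, whereas treated livers were entirely below control livers in 1.89% of all genes and entirely above in 2.52%, or 2.32% and 3.57% of those at or above the median level. The number with a lower signal and an unadjusted p under 0.05 was 2 without control 2, without control 3 or without treated 1, and 3 without treated 4. Of all genes, 3.46%, 2.77%, 2.44% and 3.18% were lower at that p in these runs, in the same order. Cyp2a12 and Cyp2d40 were among the members with such a p with any single liver left out. Of the 8 ways to leave out a liver, Cyp2a22 and Cyp2d26 kept such a p in 3, Cyp2d22 in 4 and Cyp2u1 in 1.

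**Figure D1:**
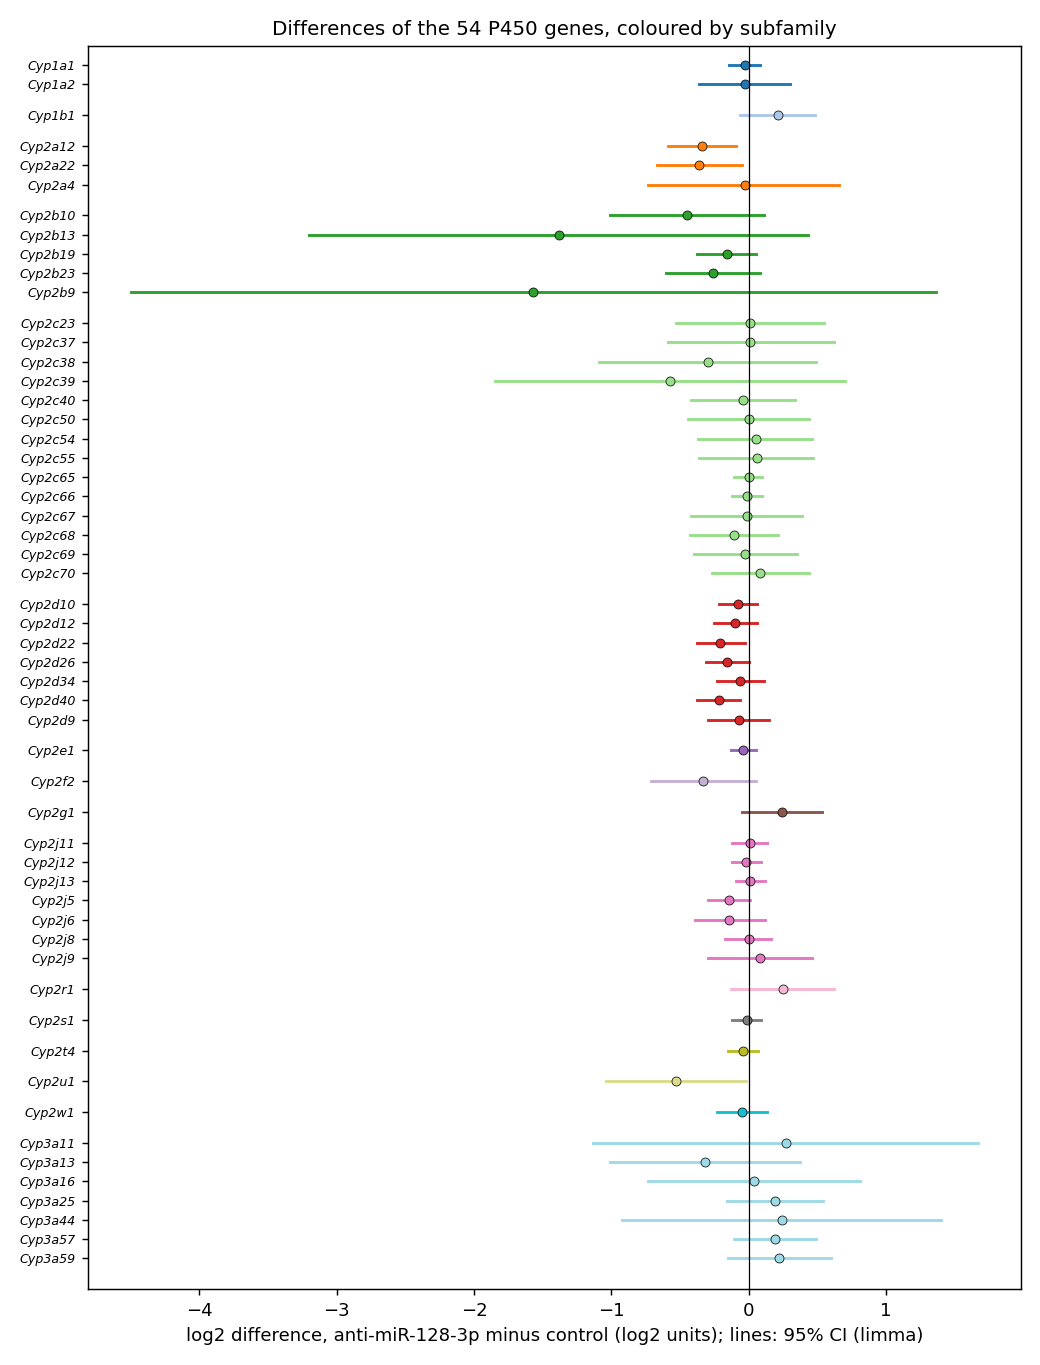
Log2 difference of treated minus control signal for the 54 P450 genes (horizontal axis, log2 units), with limma's 95% confidence interval as lines, in rows by subfamily and coloured by subfamily. All 7 Cyp2d and all 5 Cyp2b points lie left of 0, most Cyp2c points lie near 0, and the widest interval is that of Cyp2b9, from -4.50 to 1.36.

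Of these 6 genes, 5 belonged to the Cyp2a and Cyp2d subfamilies. Cyp2a enzymes hydroxylate steroids and small foreign compounds such as coumarin, and all 3 measured members were lower after treatment, the median difference being -0.34 on the log2 scale. Cyp2a12 was at 12.25, 12.56, 12.59 and 12.59 in control 1 to 4 and at 12.02, 12.32, 12.32 and 11.96 in treated 1 to 4. Every treated liver was below 3 of the 4 controls, and only control 1 lay within the treated range. The log2 difference was -0.34 ± 0.11 (limma SE), a 1.27-fold lower signal (limma unadjusted p = 0.0134, adjusted p = 0.498), and it was -0.42 without control 1. Cyp2a22 was at 10.28, 10.83, 10.72 and 10.66 in control livers and at 10.13, 10.43, 10.46 and 10.04 in treated livers. The same control liver overlapped with the treated ones, and the difference was -0.36 ± 0.14 (limma unadjusted p = 0.0265). Cyp2a4, a testosterone hydroxylase that is more abundant in female than in male mouse liver, differed by -0.03 ± 0.31, with a treated range of 9.22 to 10.76 that enclosed the control range of 9.83 to 10.53.

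**Figure D2:**
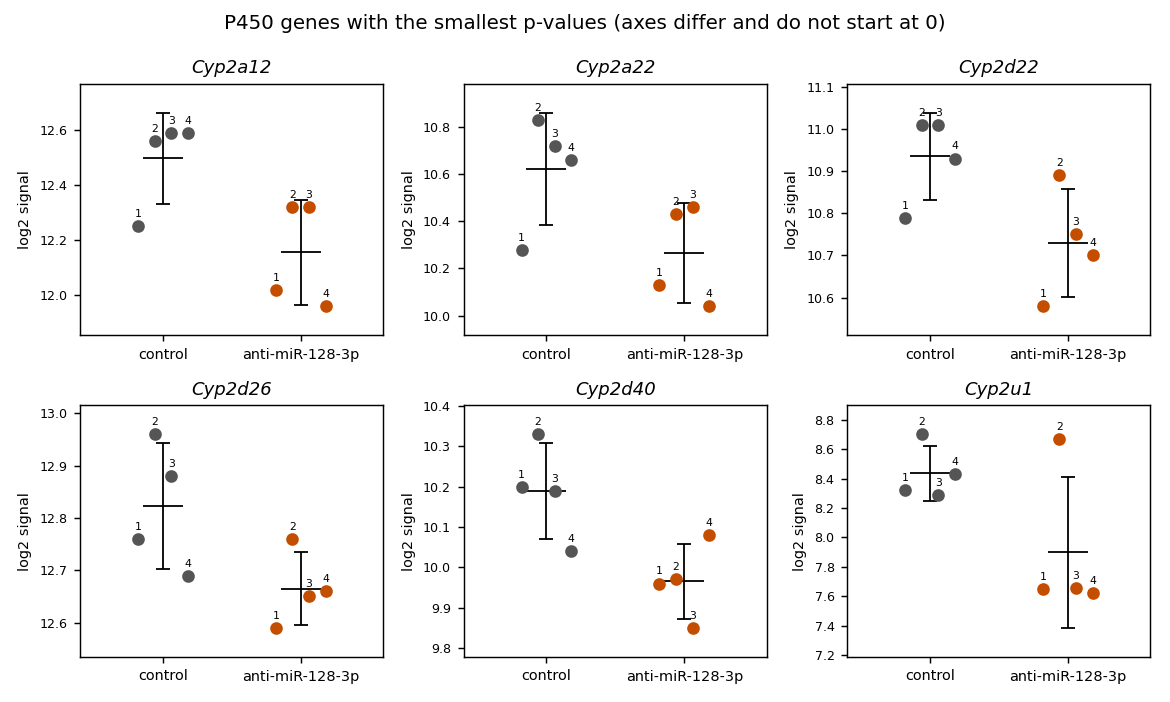
Log2 signal of the 6 P450 genes with an unadjusted limma p under 0.05 (vertical axes differ and do not start at 0) in the 4 control and 4 treated livers; points are livers with their replicate number, and bars are mean and SD. The groups overlap in each gene, by control 1 in Cyp2a12 and Cyp2a22, by control 4 in Cyp2d40, and by treated 2 in Cyp2d22, Cyp2d26 and Cyp2u1.

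Cyp2d enzymes oxidise many basic drugs. All 7 measured members were lower in treated livers, by 0.06 to 0.22 on the log2 scale, and all 7 remained lower with any single liver left out. Cyp2d40 was at 10.20, 10.33, 10.19 and 10.04 in control and at 9.96, 9.97, 9.85 and 10.08 in treated livers. Control 4 lay below treated 4, and the other controls lay above all treated livers. The difference was -0.22 ± 0.07 (limma unadjusted p = 0.0134, adjusted p = 0.498). Cyp2d22 was at 10.79, 11.01, 11.01 and 10.93 in control and at 10.58, 10.89, 10.75 and 10.70 in treated livers, a difference of -0.21 ± 0.08 (limma unadjusted p = 0.0247). Cyp2d26 was at 12.76, 12.96, 12.88 and 12.69 in control and at 12.59, 12.76, 12.65 and 12.66 in treated livers, a difference of -0.16 ± 0.07 (limma unadjusted p = 0.0455). In both genes treated 2 lay within the control range and the other treated livers below it. Cyp2d9, a male-predominant testosterone hydroxylase, differed by -0.07 ± 0.10, and Cyp2d10, Cyp2d12 and Cyp2d34 by -0.08, -0.10 and -0.06. The Cyp2d genes resemble each other, and those with coordinates in the RefSeq table lie on chromosome 15, so their probe sets may not be independent readings.

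Cyp2u1, a fatty acid hydroxylase and the only member of its subfamily, was at 8.32, 8.70, 8.29 and 8.43 in control livers. In treated livers it was at 7.65, 8.67, 7.66 and 7.62. Treated 1, 3 and 4 were far below every control and treated 2 was close to the highest control. The difference was -0.53 ± 0.23, a 1.45-fold lower signal (limma unadjusted p = 0.0424, adjusted p = 0.629). Without treated 2 it was -0.79, and this was the only liver whose omission kept the unadjusted p under 0.05. With any other liver left out the difference was -0.58 to -0.44, and that p was also missed with arrays centred on their median.

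The largest differences in size were those of Cyp2b9 and Cyp2b13, and they were also the least certain. Cyp2b enzymes oxidise barbiturates and steroids, Cyp2b10 is the classical CAR target, and Cyp2b9 and Cyp2b13 are female-predominant in mouse liver. All 5 measured Cyp2b genes were lower after treatment, by a median of -0.45 on the log2 scale, and none passed an unadjusted p of 0.05. Cyp2b9 was at 10.72, 12.18, 10.71 and 7.23 in control livers and at 5.28, 9.0, 9.55 and 10.72 in treated livers. Control 4 and treated 1 stood far below the other livers of their groups, and treated 4 equalled control 1. The 8 livers spanned 6.90 log2 units. The low end lies within the background, since the 95th percentile of the negative control rows was 7.40 to 7.53 on the arrays, so no fold is given for it. Of the genes at or above the median level, 0.0196% had a larger within-group SD. The group difference of -1.57 ± 1.29 had a 95% confidence interval from -4.50 to 1.36 (limma adjusted p = 0.847), and it was -2.57 without control 4 and -0.45 without treated 1.

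Cyp2b13 followed a similar order, with 6.38, 9.55, 7.44 and 5.19 in control and 4.92, 5.67, 6.03 and 6.41 in treated livers. Control 2 was again the highest of all livers, and treated 1, control 4, treated 2 and treated 3 were again the lowest, in that order, all 4 under that percentile. The difference was -1.38 (limma unadjusted p = 0.119). Cyp2b10 was at 4.86, 5.43, 5.68 and 4.49 in control and at 4.47, 4.41, 4.87 and 4.89 in treated livers, a difference of -0.45 ± 0.25 (limma unadjusted p = 0.103). These signals are close to the negative control rows, and 1 of the 8 arrays did not exceed the median of its negative control rows. Cyp2b19, at 4.22 to 4.68, exceeded that median on 4 arrays only, and Cyp2b23 was at 4.61 to 5.31. Cyp2b10, Cyp2b19 and Cyp2b23 were under the percentile given above in every liver, and Cyp2b13 in every liver but control 2. Most Cyp2b signals were thus within the background, and the subfamily median of -0.45 was the value of Cyp2b10. Without control 4, Cyp2b10, Cyp2b13, Cyp2b19 and Cyp2b23 each had an unadjusted p under 0.05 and the subfamily median was -0.66. Without control 3 that median was -0.26, with no such p in the subfamily. It was -1.48 over the 2 members at or above the median level of all genes, Cyp2b9 and Cyp2b13.

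**Figure D3:**
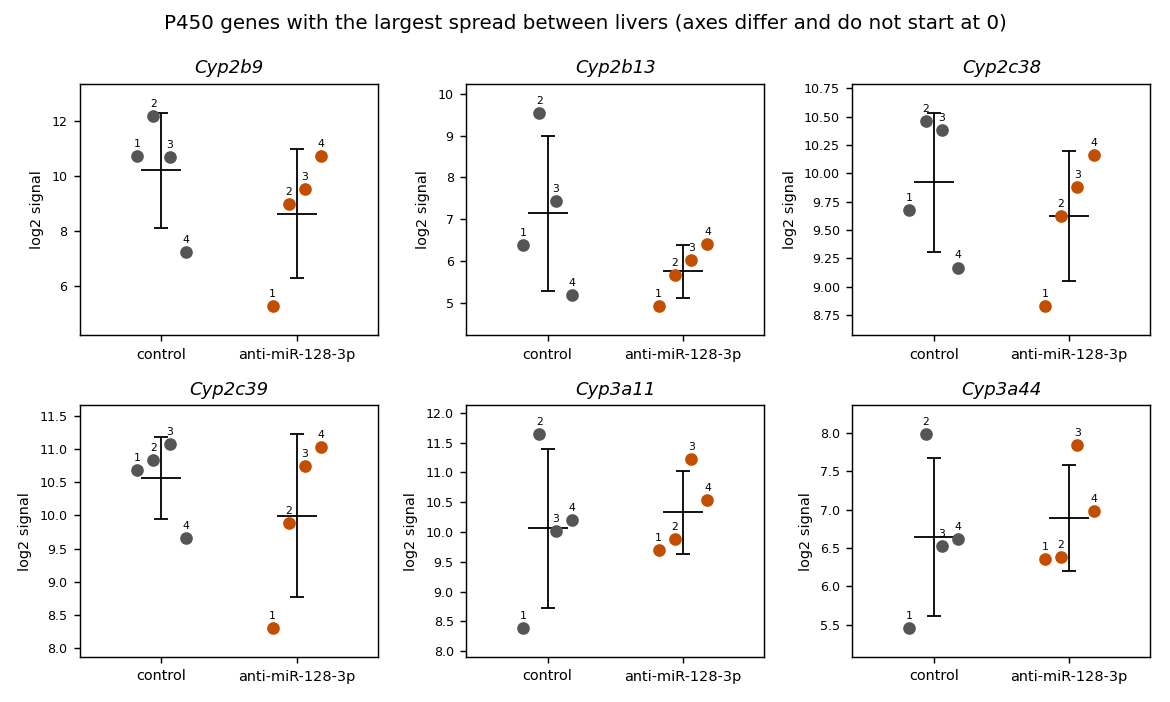
Log2 signal of 6 P450 genes with a large spread between livers (vertical axes differ and do not start at 0), in 4 control and 4 treated livers; points are livers with their replicate number, and bars are mean and SD. Treated 1 is the lowest of the 8 livers in Cyp2b9, Cyp2b13, Cyp2c38 and Cyp2c39, while in Cyp3a11 and Cyp3a44 the lowest is control 1 and the highest control 2.

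The promoters of this pair are shown because the probe sets ranked the livers in a similar order. Whether the letters bear on that order was not tested. In the RefSeq promoter table (GRCm38.p6, 300 bases around each annotated start, most of them before it), 298 of 300 bases were the same in Cyp2b9 and Cyp2b13. The 150 bases before the start are given 5′ to 3′, at chr7:26173259-26173408 (plus strand) for Cyp2b9 and chr7:26061345-26061494 (plus strand) for Cyp2b13, with AGGTCA, the half-site of many nuclear receptors, in capitals.
Cyp2b9: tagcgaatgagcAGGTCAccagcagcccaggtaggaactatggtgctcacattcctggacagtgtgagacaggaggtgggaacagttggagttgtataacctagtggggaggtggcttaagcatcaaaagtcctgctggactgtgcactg
Cyp2b13: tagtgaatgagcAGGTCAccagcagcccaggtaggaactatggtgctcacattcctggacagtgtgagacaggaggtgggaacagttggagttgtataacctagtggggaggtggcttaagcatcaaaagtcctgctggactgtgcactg

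The corresponding pair of Cyp2a genes, both lower in treated livers, had 258 of 289 bases in common when one promoter was shifted by 11 bases against the other. Cyp2a12 is at chr7:27028940-27029089 (plus strand) and Cyp2a22 at chr7:26939387-26939536 (minus strand), with TATAAA, the TATA box letters, in capitals.
Cyp2a12: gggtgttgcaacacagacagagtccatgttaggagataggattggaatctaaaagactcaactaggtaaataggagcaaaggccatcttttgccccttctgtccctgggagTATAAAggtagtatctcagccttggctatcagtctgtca
Cyp2a22: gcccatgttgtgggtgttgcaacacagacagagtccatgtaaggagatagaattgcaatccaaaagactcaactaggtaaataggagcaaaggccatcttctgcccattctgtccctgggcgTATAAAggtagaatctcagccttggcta

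Cyp2c enzymes metabolise drugs and arachidonic acid. The 14 measured members had a median log2 difference of -0.01, with 6 higher and 8 lower, and none had an unadjusted p under 0.05. The direction turned with the liver left out: 14 of 14 were lower without control 1 (median -0.14) and 11 of 14 higher without control 4 (0.03) or treated 4 (0.08). Cyp2c54 was at 11.48, 12.13, 12.02 and 12.09 in control and at 12.34, 12.07, 11.91 and 11.57 in treated livers, a difference of 0.05 ± 0.18 with a 95% confidence interval from -0.37 to 0.46. The spread of control 1 and treated 4 below the rest was larger than the difference between groups. Cyp2c37 and Cyp2c50 had the same order at both ends, with control 1 lowest, treated 4 next and treated 1 highest, and differed between groups by 0.01 and 0.00. Cyp2c23, an arachidonic acid epoxygenase, differed by 0.01, and Cyp2c70, the enzyme that makes muricholic acids from chenodeoxycholic acid, by 0.08 ± 0.16.

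Cyp2c39 and Cyp2c38 departed from the other Cyp2c genes. Cyp2c39 was at 10.68, 10.84, 11.07 and 9.66 in control and at 8.31, 9.89, 10.75 and 11.03 in treated livers. Control 4 and treated 1 were the lowest livers of their groups, as in Cyp2b9, and the range was 6.81-fold. The group difference was -0.57 ± 0.56 (limma adjusted p = 0.879), and it was -0.01 without treated 1 and -0.92 without treated 4. Cyp2c38 was at 9.68, 10.46, 10.38 and 9.17 in control and at 8.83, 9.62, 9.88 and 10.16 in treated livers, with the same 2 livers at the bottom and a difference of -0.30. These 2 genes, Cyp2b13 and the Cyp3a11 group below were singled out for their spread after their values were seen.

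Cyp2c40, Cyp2c67, Cyp2c68 and Cyp2c69 ordered the livers alike at both ends. Each had its highest signal in control 3, and its lowest in control 1 or treated 4. Their differences between groups were -0.04, -0.01, -0.11 and -0.03. Cyp2c40 and Cyp2c69 are known as female-predominant in mouse liver, and their probe sets read, in the 8 male livers, 10.23 to 10.91 and 9.75 to 10.44. The share of signal that each probe set takes from its relatives was not tested.

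The promoters of these 4 genes share a match to CAAAGTCCA, a known HNF4A motif, in capitals below (150 bases before the annotated start, minus strand, GRCm38.p6). Cyp2c40 is at chr19:39812815-39812964, Cyp2c67 at chr19:39649043-39649192, Cyp2c68 at chr19:39741102-39741251 and Cyp2c69 at chr19:39886770-39886919. With the best shift without gaps, Cyp2c40 had 267 of 270 bases in common with Cyp2c69, 205 of 220 with Cyp2c67 and 181 of 268 with Cyp2c68. An inserted or missing base lowers such a count.
Cyp2c40: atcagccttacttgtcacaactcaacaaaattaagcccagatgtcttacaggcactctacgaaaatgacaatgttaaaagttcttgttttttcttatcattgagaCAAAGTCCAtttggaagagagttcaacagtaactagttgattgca
Cyp2c67: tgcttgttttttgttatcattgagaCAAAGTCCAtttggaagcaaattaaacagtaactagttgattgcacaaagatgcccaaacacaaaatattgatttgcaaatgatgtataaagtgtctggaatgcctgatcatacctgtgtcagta
Cyp2c68: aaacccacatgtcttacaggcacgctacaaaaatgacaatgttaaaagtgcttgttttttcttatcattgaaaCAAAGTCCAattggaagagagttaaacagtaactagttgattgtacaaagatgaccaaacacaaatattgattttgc
Cyp2c69: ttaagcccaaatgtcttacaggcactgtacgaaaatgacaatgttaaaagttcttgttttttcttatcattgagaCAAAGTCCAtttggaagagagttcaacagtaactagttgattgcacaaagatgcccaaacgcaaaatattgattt

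Over all members, 47 of the 54 genes had a promoter in the table, in 50 entries. CAAAGTCCA, searched on both strands, was in 8 of the 50 (16%), against 0.475% of all 32851 promoters of this length. The 8 belonged to the 4 genes above and to Cyp2c65, Cyp2c70, Cyp3a11 and Cyp3a16, several of which are near copies of each other. AGGTCA was in 34.0% of the members' promoters against 16.3% of all, AGTTCA in 12.0% against 14%, TGTTTAC (FOXA) in 14% against 3.65%, and TATAAA in 46.0% against 13.6%. GCGTG, the core of the AhR site, was in 20% against 32.4%, and TTCNNNGAA (STAT) in 4.00% against 8.30%. The HNF1 motif was in 0 of the 50 and in 0.399% of all. A match is a run of letters and was not tested as a site.

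Cyp3a enzymes oxidise many drugs, steroids and bile acids, and Cyp3a11 is the main PXR-induced form of mouse liver. Of 7 measured members 6 were higher and 1 was lower after treatment, by a median of 0.19 on the log2 scale, and none had an unadjusted p under 0.05. The median became -0.08 without control 1 and -0.03 without treated 3. Cyp3a25 was at 10.82, 11.25, 10.64 and 10.88 in control and at 10.94, 11.28, 11.32 and 10.79 in treated livers, a difference of 0.19 ± 0.15 (limma adjusted p = 0.847). Cyp3a57 was at 8.30, 8.68, 8.18 and 8.28 in control and at 8.47, 8.66, 8.79 and 8.27 in treated livers, a difference of 0.19 ± 0.13. In both, the control and treated ranges overlapped over most of their length. Cyp3a59 differed by 0.22, and Cyp3a57 and Cyp3a59 had an unadjusted p under 0.05 without control 2.

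Cyp3a11 was at 8.39, 11.64, 10.01 and 10.20 in control and at 9.69, 9.88, 11.23 and 10.53 in treated livers. Control 1 was the lowest and control 2 the highest of the 8, a 9.52-fold range within 1 group, beside a group difference of 0.27 with a p far from the threshold (limma adjusted p = 0.970). Cyp3a44, a female-predominant relative, was at 5.46, 7.98, 6.52 and 6.62 in control and at 6.36, 6.38, 7.84 and 6.98 in treated livers, and Cyp3a16, another, at 4.39, 5.90, 4.82 and 4.99 and at 4.60, 4.76, 5.76 and 5.14. The lowest liver, the highest and the second highest, treated 3, were the same in the 3 genes. Cyp3a13 did not share that order: it was highest in control 1, at 10.55, and lowest in treated 1 and treated 2, both at 9.10, with a difference of -0.32.

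The Cyp3a11 and Cyp3a16 promoters are shown because both hold CAAAGTCCA (capitals) and both probe sets ranked the livers alike. Only 42.1% of the compared bases were the same at the best shift without gaps. The Cyp3a16 signals lay within the background, and a link between the shared letters and the shared ranking was not tested. The promoters are at chr5:145879855-145880004 and chr5:145469724-145469873, both on the minus strand of GRCm38.p6.
Cyp3a11: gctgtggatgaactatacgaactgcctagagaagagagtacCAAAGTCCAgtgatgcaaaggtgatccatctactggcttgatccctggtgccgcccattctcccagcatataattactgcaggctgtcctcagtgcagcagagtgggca
Cyp3a16: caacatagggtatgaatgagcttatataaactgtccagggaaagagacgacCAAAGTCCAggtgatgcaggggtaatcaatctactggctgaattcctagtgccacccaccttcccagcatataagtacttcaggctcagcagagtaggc

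The members of family 1 differed little between the groups. Cyp1a2, which metabolises caffeine and aromatic amines in hepatocytes near the central vein, was at 11.99, 12.33, 12.78 and 12.56 in control and at 12.46, 12.42, 12.40 and 12.28 in treated livers. The treated livers lay in the middle of a wider control range. The difference was -0.03 ± 0.15 with a 95% confidence interval from -0.36 to 0.30, and its sign changed with a second quantile normalization (0.08) and without control 3, control 4 or treated 4 (0.01 to 0.09). Cyp1a1, the AhR target that is nearly silent in uninduced liver, was at 4.09, 4.16, 4.23 and 4.13 in control and at 4.16, 4.13, 4.13 and 4.07 in treated livers, under the median of the negative control rows on every array. Cyp1b1, an extrahepatic relative, was at 3.77, 3.69, 3.64 and 3.89 in control and at 3.85, 3.78, 4.33 and 3.86 in treated livers, also under that median, and differed by 0.21 ± 0.12.

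The readings of Cyp2e1 lay closer together than those of Cyp2f2. Cyp2e1, the ethanol and acetaminophen oxidising enzyme of pericentral hepatocytes, was at 13.66, 13.71, 13.71 and 13.65 in control and at 13.62, 13.66, 13.69 and 13.61 in treated livers. All 8 livers lay within 0.10 log2 units, and the difference was -0.04 with a 95% confidence interval from -0.13 to 0.05. The probe sets of Ahsg, Trf and Alb, hepatocyte markers that are also bright, spanned 0.09, 0.12 and 0.16, and whether such bright probe sets still respond in proportion was not tested. Cyp2f2, a naphthalene oxidising enzyme of periportal hepatocytes, was at 12.55, 12.94, 13.11 and 13.23 in control and at 12.51, 12.81, 12.88 and 12.30 in treated livers. Treated 1 and treated 4 were below every control, and the difference was -0.33 ± 0.17 (limma unadjusted p = 0.0814). It was -0.46 without control 1 and -0.22 without treated 4. The unadjusted p was under 0.05 without control 1, without treated 3 and with array weights.

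Cyp2r1, the vitamin D hydroxylase of the liver, was at 6.29, 6.59, 6.72 and 7.14 in control and at 7.11, 6.95, 6.99 and 6.68 in treated livers, a difference of 0.25 ± 0.17. It was 0.12 without control 1 and 0.40 without control 4, where its unadjusted p was under 0.05. Every liver was under the 95th percentile of the negative control rows (7.40 to 7.53), so this signal was within the background. Cyp2j5, an arachidonic acid epoxygenase and 1 of 7 measured Cyp2j genes, was at 11.78, 11.79, 11.82 and 11.64 in control and at 11.51, 11.62, 11.78 and 11.56 in treated livers. Its difference was -0.14 ± 0.07 (limma unadjusted p = 0.0665), while the other Cyp2j genes differed by -0.14 to 0.08. Cyp2g1, an olfactory form, was at 4.62, 4.45, 4.61 and 4.49 in control and at 4.86, 5.13, 4.66 and 4.47 in treated livers, a difference of 0.24 ± 0.13 near background. It was 0.12 without treated 2 and 0.35 without treated 4, where its unadjusted p was under 0.05. Cyp2s1, better known from tissues outside the liver, was at 5.84, 5.80, 5.74 and 5.80 in control and at 5.72, 5.76, 5.79 and 5.85 in treated livers, a difference of -0.01. Cyp2w1, another such form, was at 5.70, 5.46, 5.79 and 5.62 in control and at 5.66, 5.44, 5.59 and 5.66 in treated livers, a difference of -0.05. The livers of both genes were mixed between the groups, and all were under that percentile. Cyp2t4 was at 4.01, 3.99, 3.89 and 3.91 in control and at 3.87, 3.99, 3.86 and 3.92 in treated livers, under the median of the negative control rows, and differed by -0.04. In all, 10 of the 54 members had mean signals under the mean negative control median of 4.38. Against the 95th percentile of the negative control rows, 32 members were above on all 8 arrays, 4 on some and 18 on none.

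Part of the spread between livers was shared by many members. Among the 39 members at or above the median level, control 1 held the lowest value of the 8 livers in 13 and the lowest control value in 23. Treated 1 held the lowest value in 10 and treated 4 in 9, while the highest was in control 2 for 14 and in control 3 for 10. Control 1 also had the highest level of neutrophil markers, a mean of 6.35 over all 8 against 4.29 to 4.68 in the other 7 livers, and of acute phase and inflammation genes, 8.56 over all 17 against 7.22 to 8.03. The latter mean was 7.77, 7.22 and 7.40 in control 2 to 4 and 7.88 to 8.03 in treated livers. Of the 17 genes, 13 were higher and 4 lower after treatment, by a median of 0.23 on the log2 scale. At an unadjusted limma p under 0.05, 5.88% of them were higher, against 4.26% of all genes, and 0.0% lower, against 3.37%. S100a8, a neutrophil gene, was at 8.38 in control 1, and Orm2, an acute phase gene, at 12.31. The part of these lists in the low P450 signals of that liver, or in the P450 differences between groups, was not tested. Without control 1, 44 members were lower and 10 higher, with a median of -0.14. The lean was weaker without control 3, with 30 lower, 24 higher and a median of 0.00, and without treated 4, with 29 lower, 25 higher and a median of -0.02.

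**Figure D4:**
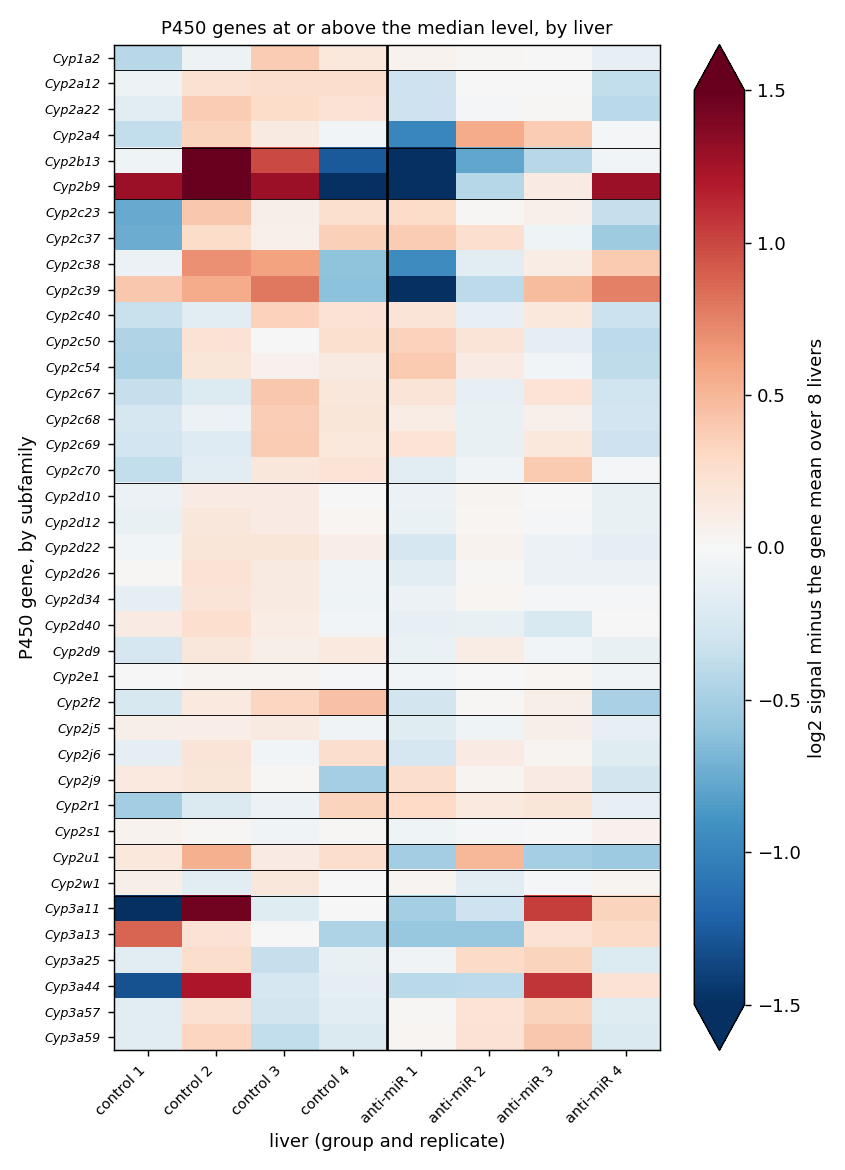
Log2 signal minus each gene's mean over the 8 livers (colour, limited to 1.5 either way) for the 39 P450 genes at or above the median level, in rows by subfamily, with the 4 control livers left and the 4 treated livers right of the thick line. Neighbouring genes share patterns across livers, such as control 1 low and control 2 high in Cyp3a11 and Cyp3a44, and control 4 and treated 1 low in Cyp2b9, Cyp2b13, Cyp2c38 and Cyp2c39.

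Among the transcription factors that drive these genes, unadjusted p-values under 0.05 were mostly on the lower side. Of the 22 measured (25 listed), 9 were higher and 13 lower after treatment, by a median of -0.02 on the log2 scale, 0 with an adjusted p under 0.05 and, at an unadjusted p under 0.05, 1 higher and 6 lower. The 6 were 27.3% of the list, against 3.37% of all genes and 4.86% of those at or above the median level, and the 1 was 4.55% against 4.26%. Differences in the list ran from -0.76 to 0.38, and of the 6 only Nr1i2, Foxa1 and Foxa2 are named here. The groups did not overlap in 1 factor that was higher and 2 that were lower, against 2.52% and 1.89% of all genes. Ahr, the aryl hydrocarbon receptor gene, was at 8.64, 8.35, 8.69 and 8.31 in control and at 8.81, 8.95, 8.73 and 9.02 in treated livers. Every treated liver was above every control, and the difference was 0.38 ± 0.10 (limma unadjusted p = 0.00497, adjusted p = 0.370). The 5 measured non-P450 targets of the receptor differed by -0.06 to 0.11, Cyp1a1 and Cyp1a2 by -0.03 each and Cyp1b1 by 0.21. Of these 3, only Cyp1a2 was above the median of the negative control rows.

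Nr1i2, the gene of PXR, was at 8.71, 8.76, 8.90 and 8.63 in control and at 8.11, 8.49, 8.74 and 8.34 in treated livers. Treated 3 lay within the control range and the others below it, and the difference was -0.33 ± 0.12 (limma unadjusted p = 0.0241). Nr1i3, the gene of CAR, was at 10.30, 10.60, 11.21 and 10.04 in control and at 10.33, 10.76, 10.01 and 10.78 in treated livers, a difference of -0.07 ± 0.26. Its livers were mixed between the groups. Foxa2, a pioneer factor of hepatocyte enhancers, was at 7.72, 7.93, 7.94 and 7.78 in control and at 7.24, 7.47, 7.71 and 7.54 in treated livers, with no overlap and a difference of -0.35 ± 0.10 (limma adjusted p = 0.389). Foxa1, its relative, differed by -0.54 ± 0.18 (limma adjusted p = 0.504).

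**Figure D5:**
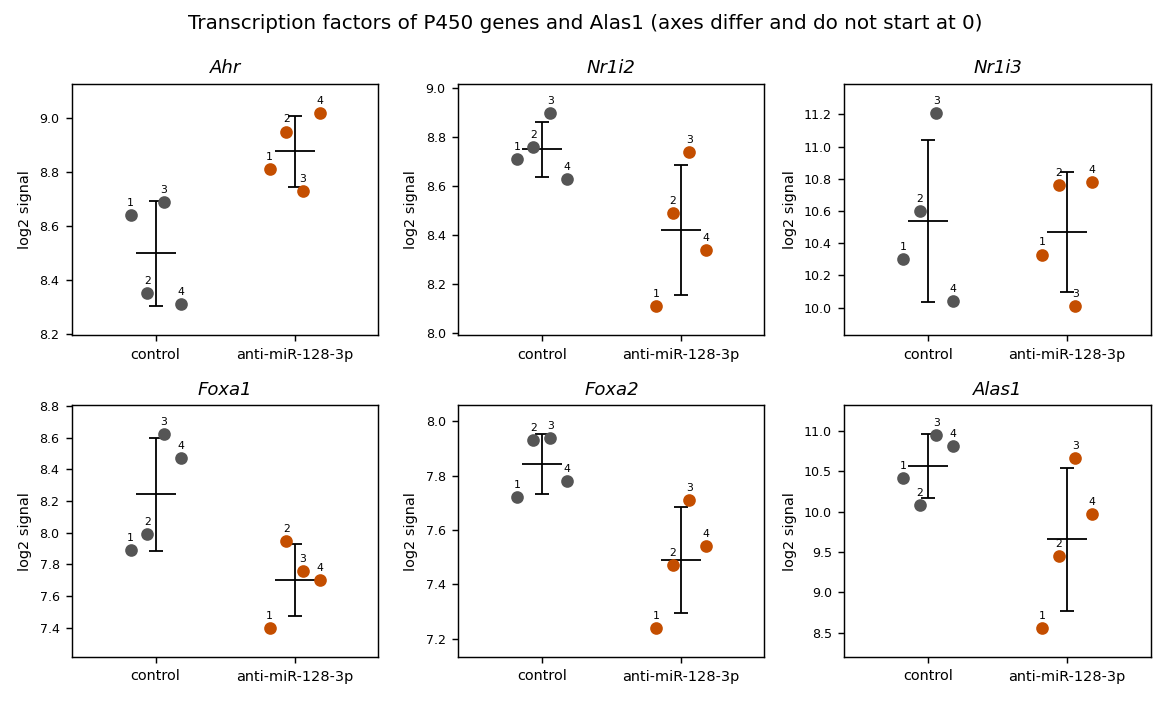
Log2 signal of 5 transcription factor genes and of Alas1 (vertical axes differ and do not start at 0) in the 4 control and 4 treated livers; points are livers with their replicate number, and bars are mean and SD. Every treated liver lies above all controls for Ahr and below all controls for Foxa2, Nr1i3 is mixed, and Alas1 reaches its lowest value, 8.56, in treated 1.

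P450 enzymes need haem and electrons. Among 14 measured genes of haem supply and the redox partners (16 listed), 4 were higher and 10 lower, with a median of -0.01. At an unadjusted p under 0.05, 0 were higher and 1 was lower, Cpox (-0.30 ± 0.13), an enzyme of haem synthesis. That was 7.14% of the list on the lower side, against 3.37% of all genes, and 0.0% on the higher side, against 4.26%. Alas1, the rate-limiting enzyme of haem synthesis in liver, was at 10.42, 10.08, 10.95 and 10.81 in control and at 8.56, 9.45, 10.66 and 9.97 in treated livers. Treated 1, 2 and 4 were below every control, treated 3 was not, and the difference was -0.91 ± 0.40 (limma unadjusted p = 0.0501, adjusted p = 0.655). Of 26 measured CAR and PXR targets outside the P450s (30 listed), 9 were higher and 17 lower, with a median of -0.09. At an unadjusted p under 0.05 there was 1 in each direction. They were the glutathione transferase gene Gstt3 (-0.60 ± 0.26) and the carbonyl reductase gene Cbr3 (0.26 ± 0.11, near background). Each was 3.85% of the list, near the 3.37% lower and 4.26% higher of all genes.

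Sex-biased and zonal genes were compared because many P450s carry those patterns. The 14 measured female-predominant genes (17 listed, 7 of the 14 P450 members) had a median of -0.07, with 2 higher and 12 lower, and 0 with an unadjusted p under 0.05. The 7 that are no P450 were all lower, by 0.02 to 0.75 on the log2 scale, the largest being Sult1e1 (estrogen sulfotransferase), at 5.23 in control 1 and, below the negative control rows, at 2.92 to 3.79 in the other livers. The 15 male-predominant genes (16 listed) had a median of -0.02, and Cyp2u1 was the only one with an unadjusted p under 0.05. It was 6.67% of that list. Of all genes, 3.37% were lower and 4.26% higher at that p. The 13 pericentral genes outside the P450s had a median of -0.04 and the 11 periportal ones of -0.12. At an unadjusted p under 0.05 there were 1 (Cpox, lower) and 0 genes. Cpox was 7.69% of the pericentral list, against the same 3.37% of all genes.

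Other cell types and immune genes were compared in the same livers. The group ranges of the list means were apart for the interferon list and only just apart for the stellate cell list. They overlapped for the other lists below. All 23 measured interferon response genes (24 listed) were higher in treated livers, with mean levels of 6.86 to 7.39 against 5.95 to 6.49 in control. Of all genes, 50.9% were lower. An unadjusted limma p under 0.05 was reached by 22 interferon genes and an adjusted one by 0. The 22 were 95.7% of the list, against 4.26% of all genes higher at an unadjusted p under 0.05. Of 12 macrophage genes 11 were higher, at 7.65 to 8.71 against 7.08 to 8.08. Of 10 stellate cell genes 7 were higher, at 7.16 to 8.29 against 6.93 to 7.15. An unadjusted limma p under 0.05 was reached by 2 higher and 0 lower macrophage genes, and by 4 higher and 1 lower stellate cell genes. Of all genes, 4.26% were higher and 3.37% lower at that p. The 4 were Col1a1 (1.62), Col1a2 (1.45), Col3a1 (1.22) and Lum (0.74). The 3 lower stellate cell genes were Reln (-0.29), which was the 1 at that p, Dcn (-0.1) and Lrat (-0.06). Of 9 sinusoidal endothelial genes 8 were lower, at 7.39 to 7.79 against 7.46 to 7.98, and bile duct genes were at 4.87 to 5.0 against 4.91 to 5.04 (7 of 8 measured). At an unadjusted p under 0.05, 33.3% of the endothelial genes were lower, against 3.37% of all genes, and 0.0% higher. For the bile duct genes both shares were 0.0%. Intestine and pancreas genes were at 5.76 to 6.02 against 5.86 to 5.94 (6 of 9 measured), 16.7% of them higher and 0.0% lower at that p. The part of these genes in the P450 differences was not tested.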

How the data were processed

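The authors deposited log2 signals from RMA, per the submitters' processing notes, and the software version is not given in the sources used here. RMA gives the arrays like distributions, so only differences relative to all genes can be seen. Of 72688 rows, 6732 were array controls. Probe sets were named through the platform annotation and Entrez IDs against RefSeq (GRCm38.p6, names, neighbours and promoters), and 31083 named 1 gene. A gene with several kept the one of highest average signal, giving 30630 genes, and each P450 member had 1.

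Differences are treated minus control by limma 3.58.1 in R 4.3.3 (lmFit, eBayes, two-sided, no covariate), adjusted by Benjamini-Hochberg over all genes. The steps were tested on simulated data. Python 3.11.15 and matplotlib 3.10.9 drew the plots. P-values rest only on these 4 and 4 samples, through each gene's spread between them, which limma draws towards that of all genes. The number of arrays limits the precision. The members and lists were chosen with earlier results of these data known. Values in every liver are given for members with an unadjusted p under 0.05 and members whose groups do not overlap. The same holds, in each subfamily, for the member with the smallest p and the one with the highest mean. Of other lists, up to 3 genes by p were considered, and only some of them are given in every liver. Ahr, Nr1i3 and Nr1i2 are always given so. Por is not analysed here.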

Additional observations from a re-analysis of the deposited data

Results flagged for a closer look

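In 5 of the 108 groups of 4 livers (54 members in 2 groups), a single liver stood apart from the other three by a gap above Dixon's critical value of 0.829 of the range; chance flags about 1 group in 20. Cyp1b1 was at 4.33 in treated 3, and Cyp2a12 was at 12.25 in control 1. Cyp2u1 was at 8.67 in treated 2, the largest gap, 0.965 of the range. Cyp2j12, at 3.22, and Cyp2j13, at 3.55, were low in treated 4, both under the negative control rows.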

How the results depend on the processing

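The number of members with an adjusted p under 0.05 was 0 with each alternative run, and it was 0 at an adjusted p under 0.1. The members with an unadjusted p under 0.05 ranged from 2 to 9 lower and from 0 to 2 higher, and the median log2 difference from -0.14 to 0.00, when each liver was left out in turn. In those runs 2.44% to 3.81% of all genes were lower and 3.17% to 4.71% higher at that p. With every liver kept, the lower count was 4 to 8 and the median -0.06 to -0.03, against 3.25% to 4.29% of all genes lower. These runs used robust moderation along a trend, weights per array, a filter at the median level, a second quantile normalization, centring, the mean of probe sets and the replicate block. With the replicate number as a block the count was 7 lower and 0 higher, against 3.41% and 3.94% of all genes, and 0 had an adjusted p under 0.05. Same-numbered arrays did not deviate together (r from -0.123 to -0.0197 across genes, none highest with its own number), so the numbers were not taken as pairs. A weak pairing could be missed by such correlations. Array weights gave 41 lower and 13 higher members. Leaving out dim members, an alternative added after seeing the data, gave a median of -0.05. The sign changed for Cyp2c54 with array weights (-0.01) and for Cyp1a2 with quantile normalization (0.08), while Cyp2s1 was at 0.00 with array weights. With a liver left out, Cyp1a2 ranged from -0.17 to 0.09, Cyp2c54 from -0.10 to 0.18 and Cyp2s1 from -0.04 to 0.01; the cause was not tested. Signal over background limits what can be said of the 18 members that were above the 95th percentile of the negative control rows on no array, 10 of which were also under their median, and of 4 that were above it on some arrays.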
